A study of Mus musculus with 20 samples.

Results

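Ataxin-3 is a deubiquitinase that binds proteins of protein quality control and DNA repair, and 7 genes encoding such binding partners were followed in mouse cerebellum: *Vcp*, *Ufd1*, *Nploc4*, *Rad23b*, *Stub1*, *Ube4b* and *Derl1*. They were chosen by symbol as known partners, with earlier results of these data known though by no rule on measured values, and all 7 were found among the 29200 genes of the count table and among the 12153 genes with enough reads to be tested. Their transcripts were measured in 20 male mice on a C57BL/6 background, 5 in each of 4 groups. The 2 genotypes were compared at 2 and at 12 months of age. The 304Q/304Q mice carried on both alleles of the murine *Atxn3* gene a knocked-in interrupted CAACAG repeat of 304 glutamine codons, kept under the gene's own regulatory elements and inherited from 1 founder line, and the WT/WT mice were littermates without it. RNA came from cerebellum in bulk, so fewer cells of a type and less RNA per cell cannot be told apart. Whether transcripts of ataxin-3's partners differed with the expanded *Atxn3* or with age was the question put to these data.

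In cells, ubiquitin attached to a protein marks it for handling, often for breakdown by the proteasome. The ATPase VCP, also called p97, pulls such proteins out of membranes and complexes, with UFD1 and NPLOC4 as the cofactor pair that recognises the ubiquitin chain. DERL1 is a membrane protein of the endoplasmic reticulum that passes misfolded proteins to VCP in endoplasmic reticulum-associated degradation (ERAD), RAD23B carries ubiquitinated cargo to the proteasome and also acts with XPC in nucleotide excision repair, CHIP (the product of *Stub1*) is a ubiquitin ligase that works with heat shock chaperones, and UBE4B lengthens ubiquitin chains. Ataxin-3 trims or edits these chains, and its expanded glutamine tract causes spinocerebellar ataxia type 3.

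No partner transcript passed the test between 304Q/304Q and WT/WT mice, either at 2 or at 12 months. By edgeR with TMM scaling, *Stub1* was the only partner past the test in any comparison, rising with age by 22.6% in WT/WT mice. That call was lost when surrogate variables or each library's trend with GC content were taken into account, and with surrogate variables *Nploc4* passed with age in 304Q/304Q mice instead. Each of the 7 partners had a 95% interval within ±0.5 on the log2 scale in every comparison, which is the size required of a differentially expressed gene (DEG) here, and 0 of 7 were DEGs. Of all genes tested, 0.00823% were DEGs between genotypes at 2 months, 3.09% at 12 months, 2.58% with age in WT/WT mice, 2.28% with age in 304Q/304Q mice and 0.938% in the interaction, so a count of 0 among 7 genes does not set the partners apart.

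In the GENCODE M21 annotation of GRCm38, *Vcp* (ENSMUSG00000028452) lies on the minus strand of chromosome 4 from 42979963 to 43000507, *Rad23b* (ENSMUSG00000028426) on the plus strand of chromosome 4 from 55350043 to 55392237, and *Ube4b* (ENSMUSG00000028960) on the minus strand of chromosome 4 from 149328416 to 149426749. *Nploc4* (ENSMUSG00000039703) is on the minus strand of chromosome 11 from 120380370 to 120437708, *Derl1* (ENSMUSG00000022365) on the minus strand of chromosome 15 from 57869502 to 57892448, *Ufd1* (ENSMUSG00000005262) on the plus strand of chromosome 16 from 18811779 to 18835261, and *Stub1* (ENSMUSG00000039615) on the minus strand of chromosome 17 from 25830505 to 25833404. *Stub1* is the shortest of them, with 2561 bases of merged exons against 7078 for *Ube4b*. In the longest annotated transcript of each gene, *Stub1* has the highest GC content at 60.8% and *Rad23b* the lowest at 46.4%. Of the exonic bases of *Stub1*, 1084 are shared with *Jmjd8* on the opposite strand. *Ube4b* shares 748 exonic bases with antisense transcripts, *Vcp* 352 with *1700022I11Rik* and *Ufd1* 209 with *Cdc45*, while *Nploc4*, *Rad23b* and *Derl1* overlap no annotated gene. The libraries were made with a stranded kit, but whether strand was used in counting is not given in the sources used here, and reads in the shared bases cannot be assigned with certainty.

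Promoters of 300 bases, 250 before to 50 after the RefSeq start in GRCm38.p6, were found for 6 of the 7 partners. The promoters of *Vcp* and *Ufd1*, whose products work in the same complex, are shown to let their base composition be compared. That of *Stub1* is added, as this partner alone passed edgeR's test with TMM scaling, with age in WT/WT mice. That call was lost in some other fits. Capitals mark CCAAT boxes (CCAAT) and GC boxes (GGGCGG) on either strand. *Vcp* is read from the minus strand of chr4:43000458-43000757, *Ufd1* from the plus strand of chr16:18812044-18812343 and *Stub1* from the minus strand of chr17:25832870-25833169.
Vcp: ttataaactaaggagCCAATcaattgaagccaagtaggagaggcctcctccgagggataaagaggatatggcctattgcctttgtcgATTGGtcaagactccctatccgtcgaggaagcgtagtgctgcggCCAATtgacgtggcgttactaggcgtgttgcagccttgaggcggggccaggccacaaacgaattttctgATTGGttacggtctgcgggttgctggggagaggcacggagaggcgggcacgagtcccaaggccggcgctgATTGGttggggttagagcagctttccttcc
Ufd1: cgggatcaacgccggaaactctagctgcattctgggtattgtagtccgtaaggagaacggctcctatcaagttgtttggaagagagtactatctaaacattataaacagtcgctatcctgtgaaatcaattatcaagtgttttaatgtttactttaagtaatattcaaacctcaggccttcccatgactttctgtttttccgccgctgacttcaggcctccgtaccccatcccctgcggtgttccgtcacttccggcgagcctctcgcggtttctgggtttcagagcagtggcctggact
Stub1: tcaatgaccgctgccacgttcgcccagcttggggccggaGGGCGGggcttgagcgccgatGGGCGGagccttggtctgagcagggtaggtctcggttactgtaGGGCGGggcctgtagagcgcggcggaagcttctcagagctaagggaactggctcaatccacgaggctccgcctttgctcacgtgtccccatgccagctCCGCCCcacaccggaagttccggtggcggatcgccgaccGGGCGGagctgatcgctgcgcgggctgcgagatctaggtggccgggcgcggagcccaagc
The *Vcp* promoter held 5 CCAAT boxes and no GC box, that of *Stub1* held 5 GC boxes and no CCAAT box, and that of *Ufd1* held neither. A CCAAT box was present in 37.4% and a GC box in 35.7% of all 32851 promoters of this length. GC content was 55.7% for *Vcp*, 47.7% for *Ufd1* and 68.3% for *Stub1*, against a median of 52.7% over all promoters. The core of an XBP1 site (TGACGTGG, in 0.676% of promoters) matched in 1 place in the *Vcp* promoter, from base −114 to −107 before the start, next to a CCAAT box from −119 to −115. The *Nploc4* promoter held none of these 3 motifs. It did hold the heat shock element searched for (GAA, any 2 bases, TTC, any 2 bases and GAA, in 0.603% of promoters), which no other partner's promoter held, and the full endoplasmic reticulum stress response element (CCAAT, any 9 bases and CCACG, in 0.119% of promoters) was found in none of the 6. The *Rad23b* promoter held 1 CCAAT box and 2 GC boxes, and the *Ube4b* promoter 1 and 4. These matches describe the letters of the window only.

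Library totals lay between 11385380 and 27636687 counted reads, with a median of 13522932.5, and the deepest was a 304Q/304Q mouse of 2 months. Every partner was well covered, with 635 to 5218 raw reads per library. The libraries were cerebellar by their markers, with the 4 granule cell markers at 3661 to 4615 CPM (counts scaled to library size) in sum and the 4 Purkinje cell markers at 2013 to 2847, while the 4 forebrain markers summed to 8.83 to 14.0. The 4 choroid plexus markers varied from 3.99 to 2069 CPM between libraries. *Atxn3*, the targeted gene (minus strand of chromosome 12 from 101918901 to 101958246), had 278 ± 42.04 normalised counts (SD, n = 5) in the WT/WT group of 2 months and 191 ± 30.8 in the 304Q/304Q group, and 222 ± 15.97 and 203 ± 17.6 at 12 months. The genotypes overlapped at both ages, at 2 months only through 1 304Q/304Q mouse at 240.5 against the lowest WT/WT mouse at 239.8. The log2 fold change of *Atxn3* was −0.54 at 2 months (adjusted p = 0.0916) and −0.13 at 12 months (adjusted p = 0.51) by edgeR. At 2 months, DESeq2 gave it an adjusted p of 0.00737. It also passed with 3 surrogate variables in DESeq2 (adjusted p = 0.00224) and in edgeR (adjusted p = 0.0190). In edgeR it passed with each library's GC trend removed (adjusted p = 0.0328) and without 304Q/304Q replicate 5 of 2 months (adjusted p = 0.0195). At 12 months it passed in 0 of 29 alternatives. A counted read does not show the repeat length.

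Compared per kilobase of exon, *Vcp* had the highest level of the partners with 39.1 ± 2.68 RPKM (reads scaled to exon length and library size, ± SD over 20 mice), followed by *Rad23b* with 33.3 ± 2.82, *Stub1* with 22.7 ± 2.43, *Derl1* with 20.3 ± 1.14, *Ube4b* with 19.5 ± 1.15, *Nploc4* with 15.3 ± 1.13 and *Ufd1* with 15.0 ± 1.75. *Atxn3* itself stood at 2.91 ± 0.559 RPKM, below the lowest partner value in every mouse. Among neighbours in this order, *Rad23b* and *Stub1* did not overlap, since the lowest *Rad23b* value was 28.5 and the highest *Stub1* value 27.1 RPKM. All other neighbouring partners overlapped over the 20 mice. Even so, *Ube4b* exceeded *Nploc4* in 20 of 20 mice and *Stub1* exceeded *Derl1* in 17, whereas *Nploc4* exceeded *Ufd1* in 11 of 20. Per kilobase of merged exons, the ATPase *Vcp* stood above either of its cofactors in every mouse. Its lowest value of 32.9 RPKM lay above the highest of *Ufd1*, 18.6, and of *Nploc4*, 17.9. These lengths merge the exons of all annotated transcripts of a gene. Which of those transcripts were present was not measured, so levels compared between genes depend on this choice of length.

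**Figure D1:**
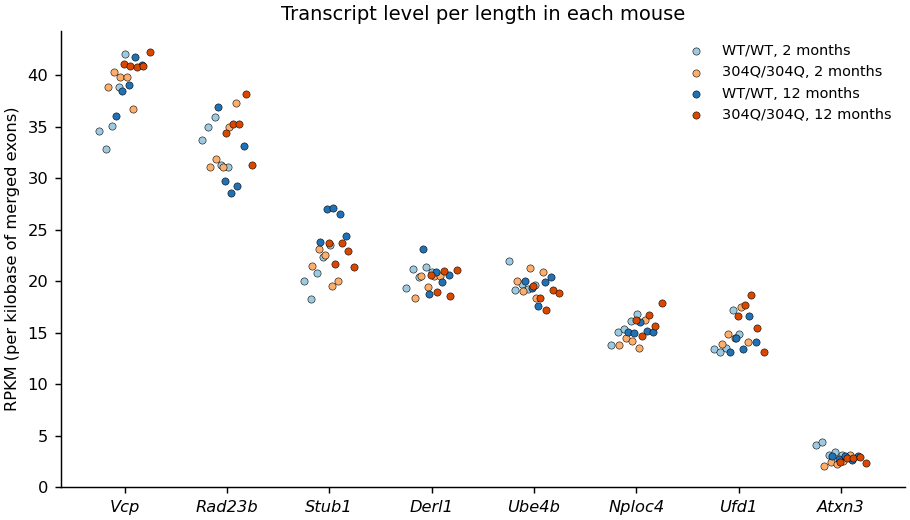
Level of the 7 partners and of *Atxn3* in RPKM (vertical axis, linear) in each of 20 mice, with 1 point a mouse and colours for the 4 groups. *Vcp* and *Rad23b* lie between 28.5 and 42.3, the other partners between 13.1 and 27.1, and *Atxn3* between 2.06 and 4.32.

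Between mice of the same group, *Ufd1* varied most, with a standard deviation of 0.16 on the log2 CPM scale, and *Ube4b* and *Derl1* least, with 0.08 each. The median over all genes tested was 0.15. Against the 500 genes nearest in level, the spread of *Ufd1* was at the 81.6th percentile, that of *Rad23b* at the 74.6th and that of *Derl1* at the 12.4th. *Vcp* was most even in the 304Q/304Q mice of 12 months, with a coefficient of variation of 1.46%, and least even in the WT/WT mice of 2 months, with 10.1%.

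**Figure D2:**
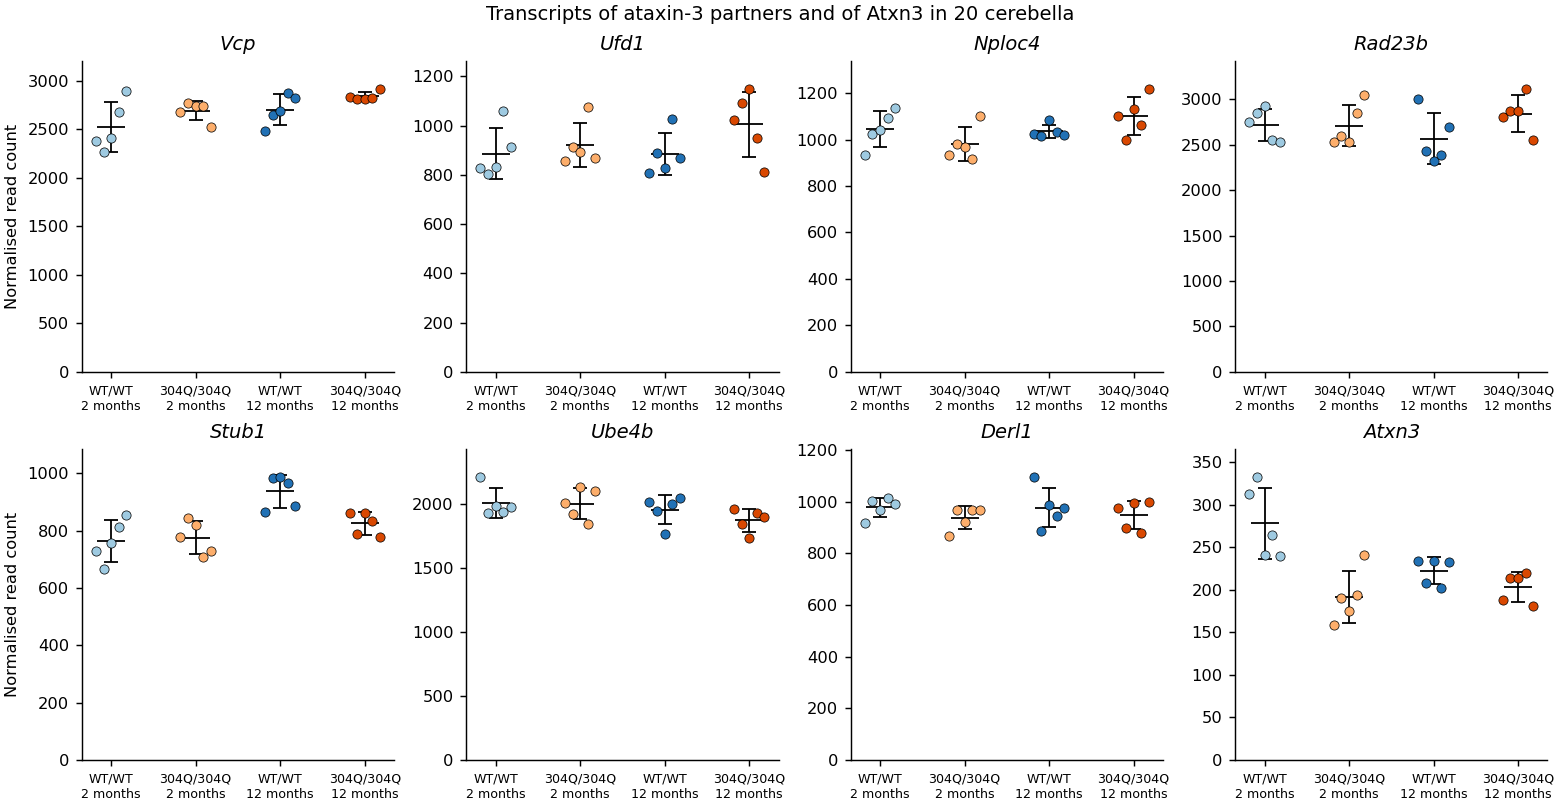
Normalised read counts (vertical axes, linear, each from 0) of the 7 partners and *Atxn3* in the 4 groups of 5 mice. Each point is 1 mouse, and the bars give the mean and SD. *Stub1* is the partner whose WT/WT mice of 12 months (866 to 986) all lie above those of the other 3 groups (665 to 864).

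At 2 months, the VCP complex showed no difference between genotypes past the test. *Vcp* had 2383, 2265, 2417, 2680 and 2899 normalised counts in the 5 WT/WT mice (read counts scaled to the mean library size) and 2679, 2777, 2743, 2746 and 2529.5 in the 5 304Q/304Q mice. The 304Q/304Q values lay within the range of the WT/WT values. The log2 fold change (log2 FC) of *Vcp* was 0.09 (95% interval −0.03 to 0.21), that of *Ufd1* 0.06 (−0.14 to 0.25) and that of *Nploc4* −0.10 (−0.23 to 0.04). For *Derl1* it was −0.06 (−0.19 to 0.06), for *Rad23b* −0.01 (−0.15 to 0.14), for *Stub1* 0.02 (−0.12 to 0.17) and for *Ube4b* −0.00 (−0.11 to 0.11). In edgeR (quasi-likelihood test, p adjusted by Benjamini-Hochberg over all genes tested), no partner had an adjusted p below 0.914, and DESeq2 called none of them. Of all genes tested, 0.0494% passed at this age. An unadjusted p under 0.05 was met by 0 of 7 partners and 5.55% of all genes, and groups without overlap were seen for 0 of 7 partners and 1.05% of all genes. The median size of the log2 FC was 0.06 for the partners and 0.07 for all genes. Cell type markers differed at this age too. In WT/WT and 304Q/304Q mice of 2 months, the 4 oligodendrocyte markers summed to 4905 to 5718 and 4193 to 4886 CPM, with 1 of 4 lower past the test. The 4 granule cell markers summed to 4477 to 4615 and 3932 to 4332 CPM with 0 of 4 past the test, and the 4 choroid plexus markers to 3.99 to 9.29 and 4.94 to 1688. Their part in the values of the partners was not tested.

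At 12 months, again 0 of 7 partners passed edgeR's test or that of DESeq2, where 12.5% of all genes passed by edgeR. *Stub1* came nearest. The WT/WT mice had 866, 984, 986, 965 and 887 normalised counts and the 304Q/304Q mice 863, 788, 864, 836 and 779. The groups did not overlap, although the highest 304Q/304Q and the lowest WT/WT mouse differed by less than 3 counts. The log2 FC of *Stub1* was −0.18 (95% interval −0.33 to −0.04), adjusted p = 0.0857 by edgeR, unadjusted p = 0.0145 in the same edgeR fit. An unadjusted p under 0.05 was thus met by 1 of 7 partners, against 27.3% of all genes, and groups without overlap were seen for 1 of 7, against 8.94%.

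*Rad23b* and *Ufd1* had log2 FCs of 0.15 (−0.00 to 0.29, adjusted p = 0.185) and 0.18 (−0.01 to 0.38, adjusted p = 0.205) at 12 months by edgeR. For *Rad23b*, the WT/WT mice had 3007, 2425, 2324, 2383 and 2698 normalised counts and the 304Q/304Q mice 2800.4, 2875, 2876, 3109 and 2546. WT/WT replicate 1 stood above the other 4 mice of its group and within the 304Q/304Q range. For *Ufd1*, these were 807, 891, 827, 1026 and 867 (WT/WT) and 1024, 1091, 1147, 951 and 809.7 (304Q/304Q), and 304Q/304Q replicate 5 was as low as the lowest WT/WT mice. Without WT/WT replicate 1, *Rad23b* (log2 FC 0.21, adjusted p = 0.0339) and *Stub1* (log2 FC −0.21, adjusted p = 0.0465) both passed edgeR's test. The trend of that library with GC content (log2 CPM at 60% minus 40% GC) was −0.15, against 0.25 to 0.39 in the other 4 WT/WT mice of 12 months, and its part in these values was not tested. With 3 surrogate variables in edgeR the log2 FC at 12 months was 0.04 for *Rad23b* (adjusted p = 0.708) and 0.03 for *Ufd1* (adjusted p = 0.871), and with the GC trend removed that of *Stub1* was −0.09 (adjusted p = 0.328).

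The remaining partners differed less between genotypes at 12 months. The log2 FC was 0.07 for *Vcp* (−0.05 to 0.19), 0.09 for *Nploc4* (−0.04 to 0.22), −0.06 for *Ube4b* (−0.17 to 0.05) and −0.04 for *Derl1* (−0.17 to 0.08), with adjusted p between 0.378 and 0.683 by edgeR. *Vcp* lay at 2834, 2818, 2816, 2820.2 and 2914 in the 304Q/304Q mice, inside the WT/WT range of 2482 to 2877 apart from replicate 5. The median size of the log2 FC was 0.09 for the partners and 0.12 for all genes. The same mice differed in cell type markers. In WT/WT and 304Q/304Q mice of 12 months, the 4 oligodendrocyte markers summed to 4685 to 5357 and 2922 to 4178 CPM with 4 of 4 lower in 304Q/304Q mice past the test, the 4 Purkinje cell markers to 2516 to 2843 and 2013 to 2283 with 3 of 4 lower, and the 4 interneuron markers to 2185 to 2483 and 1904 to 1999 with 2 of 4 lower. The 4 blood markers summed to 110 to 243 and 91.2 to 111 CPM, with 4 of 4 lower, and of the 4 markers of brainstem monoamine nuclei, which summed to 16.7 to 24.4 and 8.32 to 15.3, the 1 with enough reads to be tested was lower. In these groups 1 brainstem marker was at 0 in all 5 304Q/304Q mice and no marker of the other 4 lists was, and their part in the values of the partners was not tested.

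**Figure D3:**
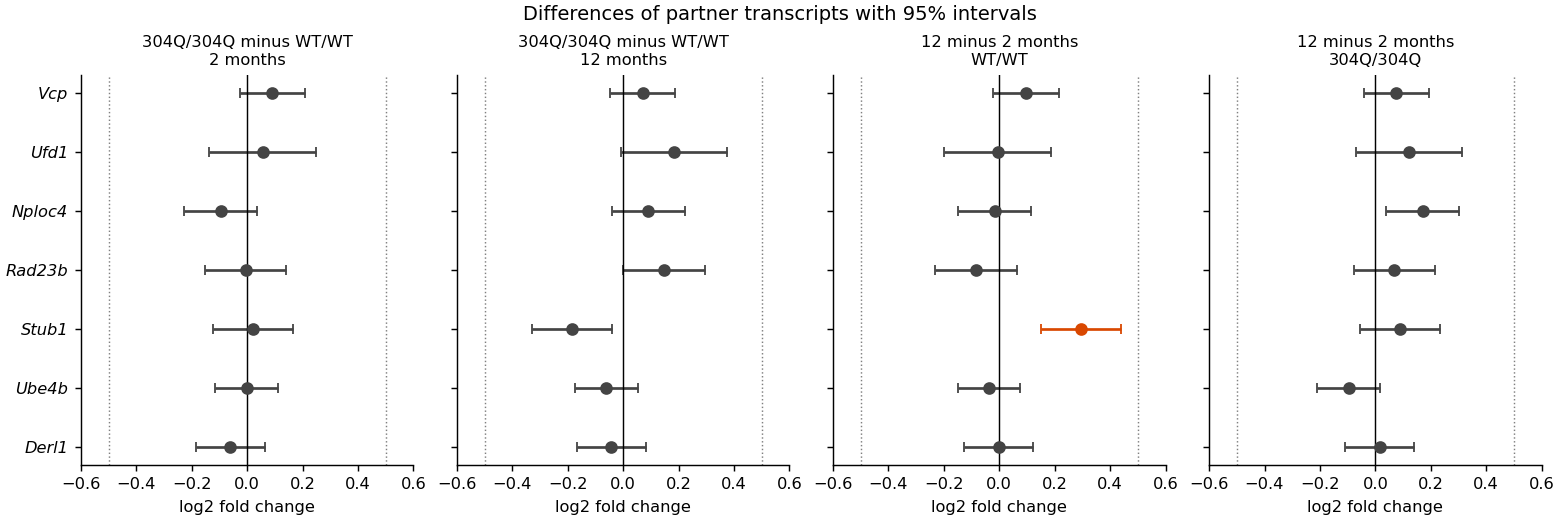
Log2 fold change (horizontal axes) of each partner between genotypes at 2 and 12 months and between ages in each genotype, with 95% intervals from edgeR and dotted lines at ±0.5. Every interval lies between the dotted lines, and only *Stub1* with age in WT/WT mice (orange, 0.29) passes the test.

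With age, *Stub1* rose in WT/WT mice. Its normalised counts were 729, 665, 757, 815 and 857 at 2 months and 866, 984, 986, 965 and 887 at 12 months, so all 5 older mice lay above all 5 younger mice. The log2 FC was 0.29 (standard error 0.0698, 95% interval 0.15 to 0.44) with an adjusted p of 0.00914 by edgeR, a rise of 22.6% (95% interval 10.98 to 35.5%). In edgeR's test 1 of 7 partners passed, against 11.5% of all genes. *Stub1* was also the only partner with an unadjusted p under 0.05, against 27.5% of all genes, and the only one whose groups did not overlap, against 6.57%. The log2 FC of the other 6 partners in WT/WT mice lay between −0.08 (*Rad23b*) and 0.10 (*Vcp*), with adjusted p from 0.274 to 0.988 by edgeR.

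The estimated rise of *Stub1* was smaller in fits that took trends of the libraries into account. Each library's trend of log2 CPM with GC content, given as the fitted difference between genes of 60% and 40% GC, ran from −0.38 to 0.15 in WT/WT mice of 2 months and from −0.15 to 0.39 at 12 months. With these trends removed, the log2 FC of *Stub1* was 0.14 (adjusted p = 0.153 by edgeR). As the trends ran higher at 12 months, their removal also takes out any age difference that follows GC content. A trend of the libraries and such an age difference cannot be told apart here. With 3 surrogate variables as covariates it was 0.19 in edgeR (adjusted p = 0.0851) and 0.19 in DESeq2 (adjusted p = 0.0766). The call was lost in these fits and held in the other 26 of 29 alternatives, of which 20 each left out 1 library. With each library left out in turn, the log2 FC of *Stub1* lay between 0.25 and 0.34. *Jmjd8*, which shares exonic bases with *Stub1*, had a log2 FC of 0.01 (adjusted p = 0.941) in the same comparison. Granule cell markers summed to 4477 to 4615 CPM in WT/WT mice of 2 months and to 3731 to 4014 at 12 months, with 3 of 4 lower past the test, and choroid plexus markers to 3.99 to 9.29 and 9.73 to 2069. Their part in the rise was not tested.

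**Figure D4:**
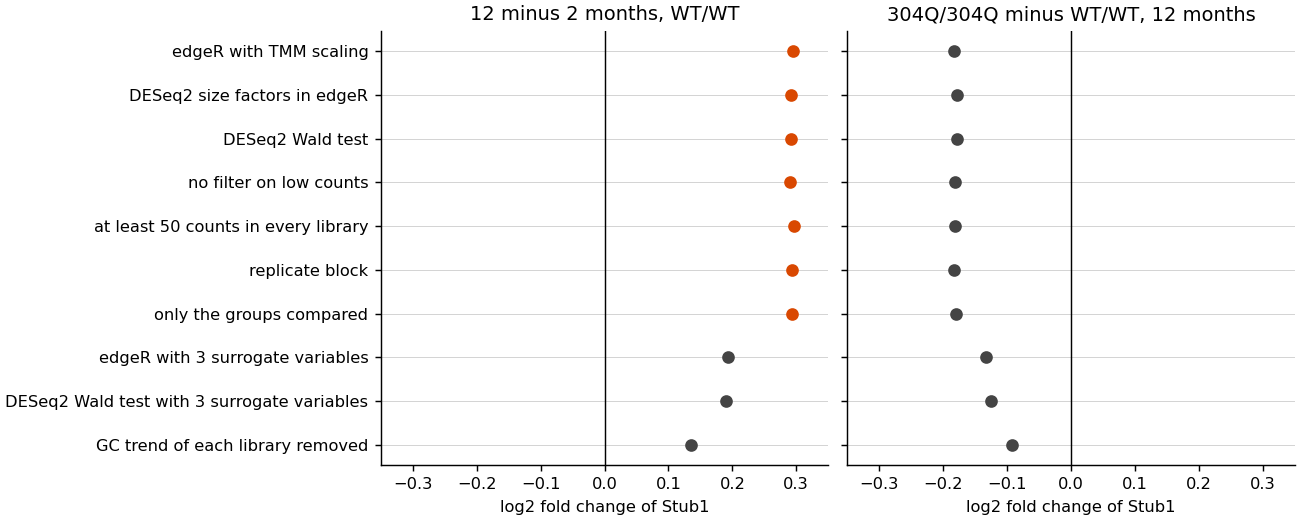
Log2 fold change of *Stub1* (horizontal axes) with age in WT/WT mice and between genotypes at 12 months, for edgeR with TMM scaling and 9 alternatives. Orange points have an adjusted p of at most 0.05; with age the value falls from 0.29 to 0.14 when the GC trend is removed, and between genotypes it goes from −0.18 to −0.09.

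In 304Q/304Q mice, 0 of 7 partners passed the test with age by edgeR or by DESeq2 without covariates, and 7.26% of all genes passed by edgeR. *Nploc4* had 934, 979, 966, 917 and 1101 normalised counts at 2 months and 1101, 999, 1131, 1064 and 1216 at 12 months. Replicate 5 of the younger mice overlapped with the older ones, and the log2 FC was 0.17 (0.04 to 0.30, adjusted p = 0.117 by edgeR). It passed with 3 surrogate variables, at an adjusted p of 0.0417 in edgeR and 0.0311 in DESeq2, and without that replicate (log2 FC 0.22, adjusted p = 0.0420). *Nploc4* was the only partner with an unadjusted p under 0.05, against 19.1% of all genes. *Vcp* was the only partner whose groups did not overlap, against 7.8% of all genes, with 2529.5 to 2777 counts at 2 months and 2816 to 2914 at 12 months, but a log2 FC of 0.08 (−0.04 to 0.19, adjusted p = 0.531 by edgeR). *Stub1* had a log2 FC of 0.09 (−0.05 to 0.23), *Ufd1* 0.12 (−0.07 to 0.31), *Rad23b* 0.07 (−0.08 to 0.22), *Derl1* 0.02 (−0.11 to 0.14) and *Ube4b* −0.10 (−0.21 to 0.02). In the same comparison, oligodendrocyte markers summed to 4193 to 4886 CPM at 2 months and 2922 to 4178 at 12 months with 3 of 4 lower past the test, Purkinje cell markers to 2464 to 2847 and 2013 to 2283 with 3 of 4 lower, and granule cell markers to 3932 to 4332 and 3661 to 3834 with 2 of 4 lower. None of these markers was at 0, and their part in the values of *Nploc4* and *Vcp* was not tested.

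Whether the genotype difference itself changed between ages was tested by the interaction term. None of the 7 partners passed by edgeR or DESeq2, and 1.95% of all genes passed by edgeR. *Stub1* (log2 FC −0.20, unadjusted p = 0.0491, adjusted p = 0.313) and *Nploc4* (log2 FC 0.19, unadjusted p = 0.04996, adjusted p = 0.314) by edgeR were the 2 partners with an unadjusted p under 0.05, against 15.9% of all genes. The rise of *Stub1* in WT/WT mice is therefore not shown to differ from its value in 304Q/304Q mice. The genotype and age comparisons share mice and are not independent of each other.

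Partners of the same complex did not vary together across mice beyond the permutation test. After subtraction of the group means from log2 CPM, Pearson's r over the 20 mice was 0.44 for *Vcp* and *Ufd1* (permutation p = 0.0606, adjusted p = 0.254, Spearman's rho 0.53, permutation p = 0.0347, adjusted p = 0.182), 0.29 for *Vcp* and *Nploc4* (permutation p = 0.301, adjusted p = 0.657, rho 0.31, permutation p = 0.206, adjusted p = 0.469) and −0.17 for *Ufd1* and *Nploc4* (permutation p = 0.535, adjusted p = 0.702, rho 0.04, permutation p = 0.883, adjusted p = 0.927). Without the 2 mice farthest from the median of the first gene, r was 0.46, 0.10 and −0.08. With the GC trend of the libraries removed, r was 0.54, 0.04 and −0.28 (adjusted p = 0.140, 0.946 and 0.631 by permutation). Of all 21 pairs of partners, 0 passed with 100000 permutations within groups and Benjamini-Hochberg adjustment over the pairs, by Pearson's r or by Spearman's rho. The lowest adjusted p belonged to *Vcp* and *Rad23b*, with r = −0.60 (permutation p = 0.00407, adjusted p = 0.0855) and rho = −0.60 (permutation p = 0.0115, adjusted p = 0.0863), and r was −0.63 without the 2 farthest mice. *Rad23b* and *Stub1* had r = −0.59 (permutation p = 0.00824, adjusted p = 0.0865) and rho = −0.58 (permutation p = 0.0123, adjusted p = 0.0863), with r = −0.51 without 2 mice. *Vcp* and *Stub1* had r = 0.66 (permutation p = 0.0138, adjusted p = 0.0938) and rho = 0.52 (permutation p = 0.0473, adjusted p = 0.199), which fell to r = 0.41 without 2 mice. With the GC trend of the libraries removed, these 3 relations had r = −0.39, −0.25 and 0.14. *Nploc4* and *Derl1* had r = 0.51 (permutation p = 0.0179, adjusted p = 0.0938) and rho = 0.60 (permutation p = 0.00941, adjusted p = 0.0863). For that pair r was 0.46 without 2 mice and 0.56 with the GC trend removed.

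The genes most like each partner over the 20 libraries, by Pearson's r of log2 CPM without removal of group means, are given as a description. For *Stub1* they were *Cst3* (r = 0.93) and *Fau* (0.89), with 57.2% and 60.2% GC in the longest annotated transcript, the measure used for every gene here. For *Rad23b* they were *Tmem106b* (0.93) and *Rnf11* (0.92), with 38.5% and 42.6% GC, and for *Vcp* *Cep131* (0.90) and *Lmtk3* (0.89), with 61.4% and 66.7%. *Vcp* itself has 49.8%. *Ufd1* was most like *Fndc10* (0.84, 62.9% GC) and *Rps15a* (0.83, 45.4%), and *Nploc4* like *Nom1* (0.82, 47.0%) and *Fam118a* (0.73, 46.5%). *Ube4b* was most like *Btaf1* (0.81, 43.2%) and *Phf8* (0.81, 49.3%), and *Derl1* like *Pacsin3* (0.74, 58.8%) and *Pls1* (0.72, 42.7%). These values share library depth and the GC trend of the libraries.

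Around the 7 partners, 71 further genes of their pathways were followed, of which 68 were tested. Of these, 0 passed between genotypes at 2 months and 6 at 12 months, 3 higher and 3 lower in 304Q/304Q mice, which is 8.82% against 12.5% of all genes. Their median log2 FC at 12 months was 0.03, and that of all genes tested −0.00. With age, 6 passed in WT/WT mice (4 higher and 2 lower) and 2 in 304Q/304Q mice, both higher, by edgeR, which is 8.82% and 2.94% against 11.5% and 7.26% of all genes.

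Among the 17 VCP cofactors, *Faf2*, a membrane-bound adaptor that recruits VCP to the endoplasmic reticulum, was higher at 12 months by 0.16 (adjusted p = 0.0429 by edgeR), a call that held in 14 of 29 alternatives. This is 5.88% of the list, against 12.5% of all genes. *Ubxn2a* fell with age in WT/WT mice by 0.27 (adjusted p = 0.0192 by edgeR), as 5.88% of the list against 11.5% of all genes. That call held in 25 of 29 alternatives. It was lost with surrogate variables in either tool and without WT/WT replicate 3 or 4 of 12 months. No other cofactor on the list passed in any of the 4 comparisons. Of 15 tested ERAD genes, *Edem2*, which acts in mannose trimming of misfolded glycoproteins, and *Selenos*, a membrane partner of VCP, were lower in 304Q/304Q mice of 12 months. They were 13.3% of the list, against 12.5% of all genes. Their log2 FCs were −0.30 (adjusted p = 0.0209) and −0.26 (adjusted p = 0.0255) by edgeR, and the calls held in 23 and 22 of 29 alternatives. Both calls were lost with surrogate variables in either tool and without WT/WT replicate 3 of 12 months. That of *Edem2* was also lost with the GC trend removed, without a filter and without 304Q/304Q replicate 1 of 12 months. That of *Selenos* was also lost without WT/WT replicate 4 or 5 or 304Q/304Q replicate 2 or 4 of 12 months. *Herpud1*, an ERAD scaffold, rose with age in WT/WT mice by 0.29 (adjusted p = 0.0214) by edgeR, as 6.67% of the list against 11.5% of all genes. That call held in 22 of 29 alternatives. It was lost with surrogate variables in either tool, with the GC trend removed, and without WT/WT replicate 2 or 3 of 2 months or replicate 3 or 5 of 12 months. The other 12 tested ERAD genes passed in none of the 4 comparisons.

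Of the 10 shuttle and excision repair genes, *Ubqln4*, a proteasome shuttle, was lower at 12 months (log2 FC −0.26, adjusted p = 0.00214 by edgeR), which is 10% of the list, against 12.5% of all genes. *Sqstm1*, the autophagy receptor p62, rose with age by 0.23 (adjusted p = 0.00882) in WT/WT and by 0.28 (adjusted p = 0.00184) in 304Q/304Q mice by edgeR. In 304Q/304Q mice *Ubqln2* rose by 0.25 (adjusted p = 0.0162 by edgeR). With age, 10% of the list passed in WT/WT mice, against 11.5% of all genes, and 20% in 304Q/304Q mice, against 7.26%. The call of *Ubqln4* held in 29 of 29 alternatives, those of *Sqstm1* in 28 and 29, and that of *Ubqln2* in 26. Among the 12 tested CHIP partners and cochaperones, *Hspbp1* and *Hspa8* rose with age in WT/WT mice (16.7% of the list, against 11.5% of all genes). Their log2 FCs were 0.30 (adjusted p = 0.0309) and 0.27 (adjusted p = 0.0473) by edgeR, calls that held in 18 and 14 of 29 alternatives. No gene of this list passed between genotypes. *Hspa8* encodes the constitutive heat shock chaperone HSC70, whose clients CHIP ubiquitinates. Of 14 other tested partners of ataxin-3, the acetyltransferase gene *Kat2b* and the deacetylase gene *Hdac6* were higher in 304Q/304Q mice of 12 months, by 0.34 (adjusted p = 0.000968) and 0.32 (adjusted p = 0.00141) by edgeR. They were 14.3% of the list, near the 12.5% of all genes that passed, and both calls held in 29 of 29 alternatives. *Kat2b* fell with age in WT/WT mice by 0.20 (adjusted p = 0.0428 by edgeR), as 7.14% of the list against 11.5% of all genes. That call held in 14 of 29 alternatives. *Kat2b* also passed the interaction test, alone among the 68 tested pathway genes (1.47%, against 1.95% of all genes).

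**Figure D5:**
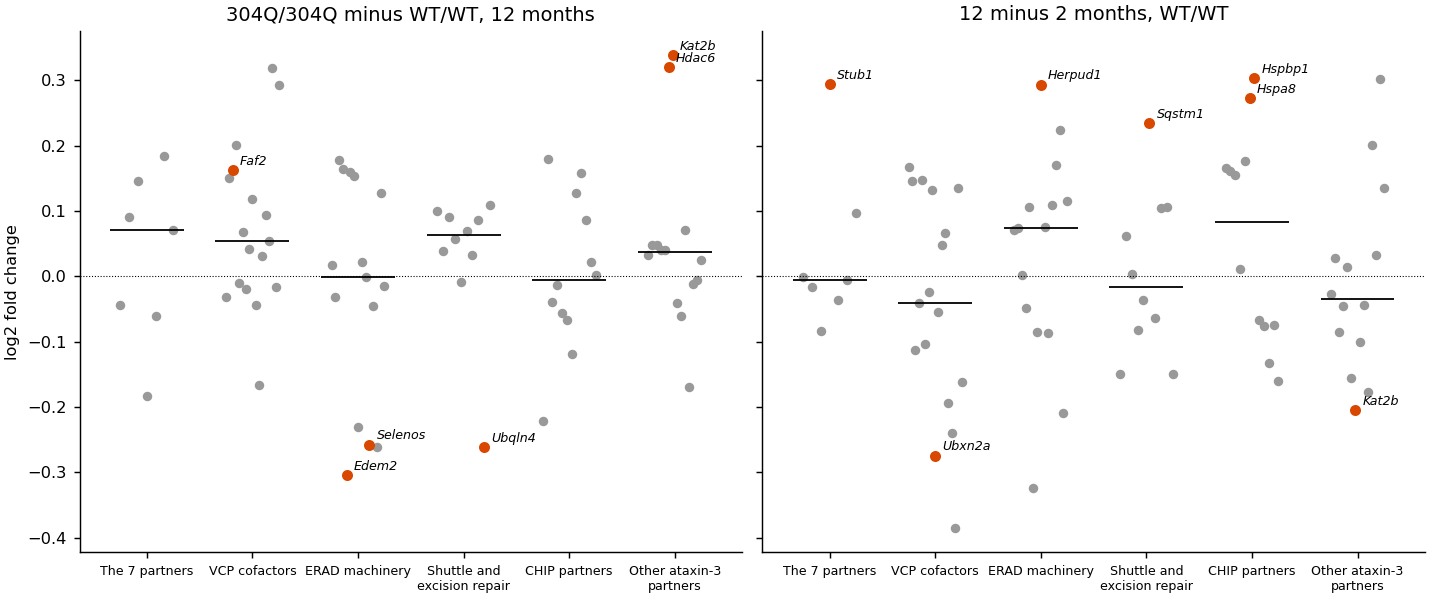
Log2 fold change (vertical axis) of the 7 partners and of the tested genes of 5 pathway lists between genotypes at 12 months and with age in WT/WT mice, with 1 point a gene and a line at each list's median. Orange points have an adjusted p of at most 0.05 by edgeR; *Kat2b* and *Hdac6* (0.34 and 0.32) are the highest at 12 months, and *Edem2* (−0.30) is the lowest.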

How the data were processed

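The authors prepared polyA-enriched, stranded libraries from cerebellar RNA, aligned paired-end reads to GRCm38 (Ensembl annotation) with STAR and counted them per gene with Rsubread; the deposited values are whole-number counts of 29200 genes, without normalization. Each of the 20 columns was matched to 1 mouse by its label. Labels name ataxin-2 for the wild-type alleles, and the study's methods, which name *Atxn3*, were followed.

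Library sizes were scaled by TMM in edgeR 4.0.16 (R 4.3.3). The 12153 genes averaging 50 or more counts, which held 99.3% of all counts, were tested in 1 quasi-likelihood model with 4 group means (common biological coefficient of variation 0.113). P-values were adjusted by Benjamini-Hochberg over all genes. DEGs required an adjusted p ≤ 0.05 and |log2 FC| ≥ 0.5. A prior count of 2 was added for log2 CPM. RPKM used merged exon lengths of GENCODE M21. Alternatives were DESeq2 1.42.0, 3 surrogate variables (sva 3.50.0) in either tool, DESeq2's size factors, 2 other filters, a replicate block, only the groups compared and each library left out. Removal of each library's GC trend, with the GC content of a gene taken from its longest annotated transcript, was added after the data were seen. Of the 29 alternatives to a call, 20 left out 1 library each. Such a fit hardly moves a log2 FC when the library lies outside the groups compared, so tallies out of 29 do not count independent checks. Pairs of partners were tested by permutation within groups. The fits were also run on simulated counts with the same spread for all genes and no GC trend. Such counts cannot show how a GC trend acts on a call.

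The partners, pathway lists, markers and tests were chosen with earlier results of these data known. Named pathway genes are those past the test in any of the 4 comparisons, at most 4 a list. *Jmjd8* was added as a gene that overlaps *Stub1*. Results for some genes are not given here. That mice of a group are separate animals is given by the labels, and counts of replicates differed beyond sampling noise (chi-square over its degrees of freedom at least 4.43).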

Additional observations from a re-analysis of the deposited data

Results flagged for a closer look

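In 6 of 80 sets of a named gene and a group, the highest or lowest of 5 mice stood apart, with a gap to the next mouse of over 0.71 of the group's whole range, which chance gives in about 1 of 20 groups. Among the partners, *Vcp* in 304Q/304Q mice of 12 months had its highest value in replicate 5 (2914 normalised counts against 2834 in the next mouse, a gap of 0.807 of the range). *Ufd1* in 304Q/304Q mice of 2 months was highest in replicate 4 (1077 against 915, a gap of 0.715). *Nploc4* in WT/WT mice of 12 months was highest in replicate 3 (1085 against 1032, a gap of 0.771), and *Ube4b* in WT/WT mice of 2 months in replicate 1 (2207 against 1982, a gap of 0.794). In 304Q/304Q mice of 12 months, *Sqstm1* was lowest in replicate 4 (4972 against 5251, a gap of 0.760) and *Hspa8* highest in replicate 5 (27804 against 24255, a gap of 0.784).

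The genotype difference of *Kat2b*, which encodes an acetyltransferase bound by ataxin-3, differed between ages by edgeR's interaction test (adjusted p = 0.0170). Its log2 FC was −0.07 at 2 months and 0.34 at 12 months, a difference of 0.41. Of the 68 tested pathway genes 1.47% passed this test, against 1.95% of all genes.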

How the results depend on the processing

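Of the log2 fold changes of partners, *Atxn3* and named pathway genes, none reversed a called direction under any alternative; 90 changed sign with no call on either side. With each library left out, 0 to 2 partners passed between genotypes at 12 months (2 without WT/WT replicate 1), 0 to 1 with age in 304Q/304Q mice (1 without replicate 5 of 2 months) and 0 to 3 pairs of partners across mice. The 3 pairs without 304Q/304Q replicate 4 of 2 months were *Vcp* with *Rad23b*, *Vcp* with *Stub1* and *Nploc4* with *Derl1*; *Vcp* with *Rad23b* alone passed without WT/WT replicate 5 of 12 months, and *Rad23b* with *Stub1* alone without 304Q/304Q replicate 5 of 12 months. With age in WT/WT mice, 0 partners passed with 3 surrogate variables in DESeq2, 0 in edgeR and 0 with the GC trend removed, and with age in 304Q/304Q mice 1 passed with surrogate variables in DESeq2 and 1 in edgeR. Over all genes, calls between genotypes at 2 months went from 6 to 22 with DESeq2, 52 and 44 with surrogate variables in DESeq2 and edgeR, 10 without a filter, 15 with the GC trend removed and 4 to 10 with libraries left out. With age in WT/WT mice they went from 1398 to 820 with surrogate variables in edgeR, 739 with only the groups compared, and 726 to 2542 with libraries left out, where omission of WT/WT replicate 1 of 12 months gave the highest count. With age in 304Q/304Q mice 882 became 1659 and 1510 with surrogate variables in DESeq2 and edgeR, and for the interaction 237 became 395 with DESeq2, 420 with surrogate variables in DESeq2 and 155 to 558 with libraries left out, with that omission again the highest. The cause of these moves was not tested. The deviations of same-numbered mice correlated at −0.32 to 0.55, with the highest value for replicate 1 of the WT/WT mice of 2 and 12 months. These correlations cannot show whether the numbers pair the mice. With the replicate block, no partner gained or lost a call, and *Stub1* with age in WT/WT mice kept a log2 FC of 0.29 (adjusted p = 0.0170 by edgeR). With 5 mice a group, the interval of a partner's difference reached up to 0.44 from 0, and differences inside the intervals were not resolved.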
